A study of Mus musculus with 6 samples.

Results

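The spliceosomal small nuclear RNA (snRNA) genes were examined in total RNA from mouse embryonic stem cells with and without a heterozygous truncation of Srrm2, which encodes a large serine- and arginine-rich splicing factor of nuclear speckles. Members were all genes that the annotation types as snRNA. Earlier results of these data were known when the group was chosen, but no count decided which genes entered it. The deposited table held 1383 such genes among 42450 genes. Of these 1383 genes, 573 had at least 1 count in any library and 810 were at 0 throughout. Genes with identical counts in all 6 libraries were taken as 1 count profile, which left 373 profiles, and 92 genes (74 profiles) were high enough to be tested. Only 11 genes carry a symbol that names their family (Rnu1a1, Rnu1b1, Rnu1b2, Rnu1b6, Rnu2-10, Rnu5g, Rnu6, Rnu6-ps2, Rnu7, Rnu11 and Rnu12). A further grouping placed 377 genes in a family because their transcripts were at least 90% identical to a reference transcript of that family.

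The parental cells were the male line E14tg2a.4 (WT), and the Srrm2+/- cells were the gene-trap line CG0630 derived from it, which is 1 clone. There were 3 libraries of each genotype, made from independent frozen batches of cells. Both were grown on gelatin, first in GMEM with leukaemia inhibitory factor (LIF) and then in serum-free ESGRO medium with LIF, and neither received any other treatment. The 2 lines were at different passages, so passage and genotype cannot be told apart.

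The spliceosome removes introns with the help of a few short, abundant RNAs. In the major spliceosome, U1 snRNA pairs with the 5′ splice site, U2 pairs with the branch point, and U4, U5 and U6 join as 1 particle in which U4 is wound onto U6 until the catalytic centre forms. A small class of minor introns is removed by a parallel set in which U11 replaces U1, U12 replaces U2, and U4atac and U6atac replace U4 and U6, whereas U5 serves both. Except for U6 and U6atac, which RNA polymerase III makes, these RNAs are made by RNA polymerase II, cleaved by the Integrator complex, exported, loaded with a ring of Sm proteins by the SMN complex and returned to the nucleus. Mammalian genomes hold many copies and decayed pseudogenes of each family.

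Depth lay between 54151433 and 69933421 estimated counts per library. Srrm2 itself was at 91.2, 98.3 and 97.7 CPM (counts relative to the scaled total of the library) in WT and at 62.3, 56.2 and 59.6 CPM in Srrm2+/- cells, a log2 fold change of -0.69 (edgeR adjusted p = 2.38e-05, SE 0.0503). All 7 embryonic stem cell markers passed the filter; 4 of them (Sox2, Nanog, Zfp42 and Esrrb) were lower and Utf1 was higher in Srrm2+/- cells. Markers of feeder fibroblasts were scarce, with 5 of 7 past the filter. Their summed level was 3.21 to 3.34 CPM in WT and 6.60 to 10.3 CPM in Srrm2+/- cells. Of the 5, 4 were called higher, and Thy1 had a negative log2 fold change (-0.70) and was not called. Below the filter, Dcn had 0 counts in every WT library and 4, 2 and 3 in Srrm2+/- cells. Lum had 3, 0 and 0 counts in WT and 0, 1 and 3 in Srrm2+/- cells. None of 6 primitive endoderm and 4 erythroid markers was called (4 and 1 past the filter). The part of the fibroblast markers in the snRNA results was not tested. WT replicate 3 stood apart from the other WT libraries: for all 27 snRNA profiles with 1000 or more summed counts it held the lowest WT level, so results are also given without it. That choice rests on the snRNA levels themselves, and leaving it out enlarged the family falls. Leaving out another WT library could shrink them, as for U5 (-1.54 without WT replicate 1) and U4 (-1.41 without WT replicate 2). Ranges over all left-out libraries are given at the end.

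One transcript of each of 7 families is shown first, because the family, its length and its recognition element order all that follows. Sequences are the GENCODE M21 transcripts (build GRCm38), 5′ to 3′ and written as DNA. Capitals mark the element that meets the intron or, for U4atac, the longest stretch that is complementary to its partner U6atac, and U4 has none marked. In U1, positions 3 to 9 (ACTTACC) pair with the 5′ splice site. In U2, positions 33 to 38 (GTAGTA) pair with the branch point. Families U4, U4atac and U6atac have no symbol in the annotation and were recognised by sequence.
Rnu1a1 (U1, chr11:87422867-87423030, plus strand): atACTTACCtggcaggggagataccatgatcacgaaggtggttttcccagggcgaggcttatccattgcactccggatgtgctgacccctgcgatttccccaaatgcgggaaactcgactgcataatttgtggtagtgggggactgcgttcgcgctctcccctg
Rnu2-10 (U2, chr11:101658238-101658428, plus strand): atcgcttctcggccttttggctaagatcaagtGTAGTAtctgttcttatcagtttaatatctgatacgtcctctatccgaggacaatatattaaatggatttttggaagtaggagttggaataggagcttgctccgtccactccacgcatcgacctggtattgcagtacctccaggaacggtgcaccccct
Gm24265 (U4, chr5:115489459-115489599, plus strand): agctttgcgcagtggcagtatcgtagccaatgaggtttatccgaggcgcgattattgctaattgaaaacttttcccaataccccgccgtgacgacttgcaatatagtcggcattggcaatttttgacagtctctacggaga

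For the minor spliceosome, the capitals in U11 are positions 2 to 7 (AAAAGG), those in U12 are positions 18 to 24 (GTAAGGA), and those in U6atac are positions 11 to 17 (AAAGGAG). The U4atac stretch at positions 2 to 9 is complementary over 8 bases to positions 41 to 48 of U6atac.
Rnu11 (U11, chr4:132270080-132270213, minus strand): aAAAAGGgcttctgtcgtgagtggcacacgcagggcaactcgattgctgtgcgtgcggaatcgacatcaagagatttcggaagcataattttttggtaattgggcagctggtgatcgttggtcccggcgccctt
Rnu12 (U12, chr15:83149644-83149794, plus strand): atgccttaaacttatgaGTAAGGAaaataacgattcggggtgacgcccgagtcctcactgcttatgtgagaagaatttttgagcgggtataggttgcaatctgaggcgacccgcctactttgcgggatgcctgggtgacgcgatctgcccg
Gm22710 (U4atac, chr1:118459141-118459265, minus strand): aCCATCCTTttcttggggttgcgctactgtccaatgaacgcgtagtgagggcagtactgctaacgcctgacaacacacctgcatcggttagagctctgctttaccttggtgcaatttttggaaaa
Gm25541 (U6atac, chr2:27539805-27539930, minus strand): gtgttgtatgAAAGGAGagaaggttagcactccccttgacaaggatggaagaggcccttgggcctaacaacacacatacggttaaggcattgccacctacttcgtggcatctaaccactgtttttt

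Searched on the transcript strand only, ACTTACC was held by 4.70% of the 1383 snRNA-type transcripts, GTAGTA by 3.69%, AAAAGG by 2.02%, GTAAGGA by 1.37% and AAAGGAG by 1.23%. At 90% identity U6 held 306 genes, U1 held 34 genes, U2 held 14, U5 held 8, U6atac held 5, U12 held 4, U4 held 3, and U11, U4atac and U7 held 1 each.

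The comparison of Srrm2+/- with WT asks whether snRNA levels changed when 1 copy of Srrm2 was truncated. With all 6 libraries in the fit, they were lower wherever a change was called. Of the 92 snRNA genes tested, 26 (28.3%) were lower and 0 were higher in Srrm2+/- cells (edgeR, adjusted p under 0.05), while over all 18905 genes tested 25.3% were called, 11.7% as lower and 13.6% as higher. With identical copies taken once, 22 of 74 profiles were lower and 0 were higher. The count of higher genes was also 0 with DESeq2 and with limma voom, and 0 at an unadjusted p under 0.05 with each of the 3 tools, where edgeR had 42 lower. The median log2 fold change was -0.61 over the 92 snRNA genes and -0.0025 over all genes. All 3 WT libraries lay above all 3 Srrm2+/- libraries for 29 of the 92 genes, compared with 20.0% of all genes tested. In bulk RNA, less RNA per cell and fewer cells that carry it cannot be told apart. Without WT replicate 3, 45 of 104 snRNA genes were lower and the median was -0.79. Without Srrm2+/- replicate 3, 18 of 101 were lower, 1 was higher and the median was -0.45.

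Most lower calls were of abundant snRNAs, where the depth is greatest. Of the 27 profiles with 1000 or more counts in all, 20 were lower, all 27 had a negative log2 fold change, and the median was -1.38. Of the other 47 profiles, 2 were lower, 31 were negative, and the median was -0.39. Those 2 were Gm22710 (U4atac) and Gm22042, a U1 relative with 14 to 47 counts per library (log2 fold change -1.14, edgeR adjusted p = 0.0243). No profile without a family (35 tested) was called.

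**Figure D1:**
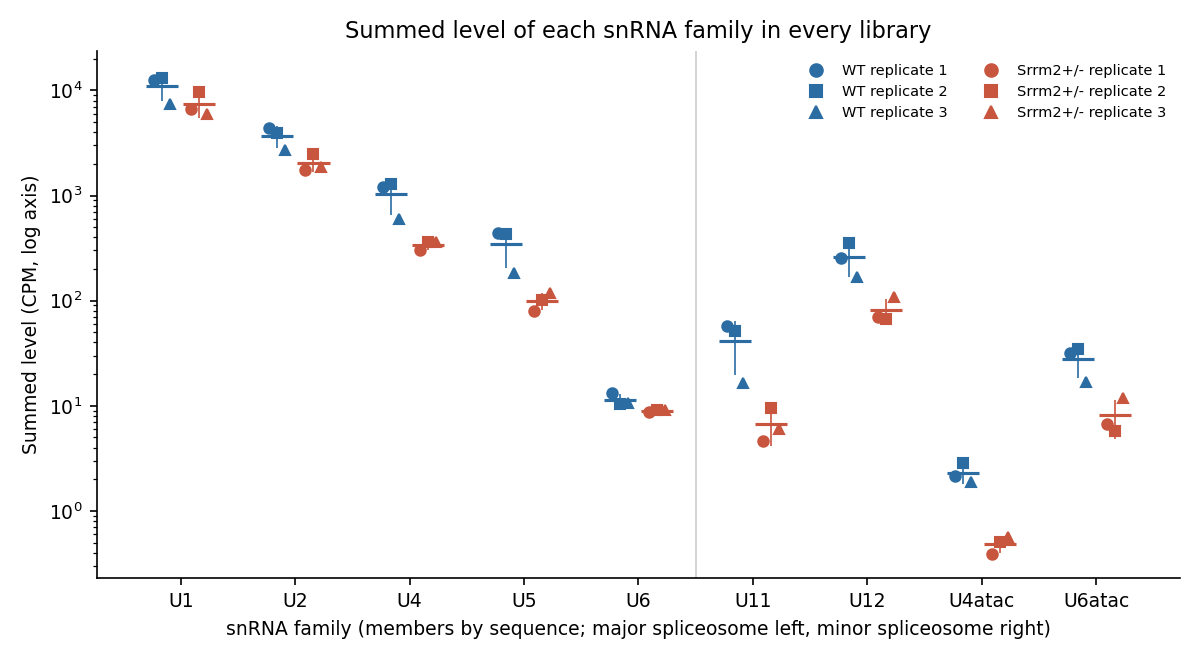
Summed level of each snRNA family in every library. The log axis gives CPM summed over family members assigned by sequence, points are libraries, horizontal lines are means and vertical lines are SD (n = 3 per genotype). For U1 the genotypes overlap, and for the other 8 families all WT libraries lie above all Srrm2+/- libraries, from 78.5% of WT for U6 down to 16.2% for U11.

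U1 snRNA was the most abundant family and was the only tested family that was not called. By symbol, the summed Rnu1a1, Rnu1b1, Rnu1b2 and Rnu1b6 level was 2503, 2674 and 1631 CPM in WT and 1409, 2047 and 1316 CPM in Srrm2+/- cells. WT replicate 3 lay below Srrm2+/- replicate 2, so the genotypes overlapped. This gave a log2 fold change of -0.51 (edgeR adjusted p = 0.101, SE 0.203). Over all 34 genes by sequence it was -0.58 (edgeR adjusted p = 0.0907, SE 0.222), where WT libraries averaged 11010 ± 3098 CPM and Srrm2+/- libraries 7385 ± 1923 CPM (SD, n = 3). The call depended on 2 libraries: without WT replicate 3 the symbol-based value was -0.70 (edgeR adjusted p = 0.0194), and without Srrm2+/- replicate 2 it was -0.73 (edgeR adjusted p = 0.0309).

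U2 snRNA was called lower. Rnu2-10, which shares its counts and sequence with Gm23849, Gm23971 and Gm24950, was at 491, 418 and 263 CPM in WT and at 170, 252 and 181 CPM in Srrm2+/- cells. The groups did not overlap, although WT replicate 3 and Srrm2+/- replicate 2 were close. The log2 fold change was -0.96 (edgeR adjusted p = 0.0119, SE 0.219), or 51.5% of WT. By sequence, over 14 genes, it was -0.86 (edgeR adjusted p = 0.00629, SE 0.174). The call on Rnu2-10 was lost without Srrm2+/- replicate 1 (-0.85, edgeR adjusted p = 0.0502) and without Srrm2+/- replicate 3 (-0.89, edgeR adjusted p = 0.052), and without WT replicate 3 the value was -1.17.

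U4 snRNA, the partner that holds U6 inactive, was at 1200, 1277 and 604 CPM in WT and at 300.3, 358 and 359 CPM in Srrm2+/- cells. Every Srrm2+/- library was well below the lowest WT library. Its log2 fold change was -1.60 (edgeR adjusted p = 0.00113, SE 0.235), or 33.0% of WT, and -1.87 without WT replicate 3.

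U5 snRNA, which aligns the exons in both spliceosomes, was also called lower. Rnu5g was at 170, 132 and 73.5 CPM in WT and at 28.4, 36.4 and 41.4 CPM in Srrm2+/- cells, without overlap. The log2 fold change was -1.82 (edgeR adjusted p = 0.00127, SE 0.268), or 28.2% of WT. The sum over 8 genes gave -1.80 (edgeR adjusted p = 0.00186, SE 0.29), and without WT replicate 3 Rnu5g gave -2.09.

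U6 snRNA was barely represented in these libraries. The 2 genes named Rnu6 and Rnu6-ps2 together had 6, 7 and 8 counts in the WT libraries, against 9, 8 and 8 in Srrm2+/- cells, and were not tested. The 306 genes by sequence summed to 13.2, 10.4 and 10.6 CPM in WT and to 8.67, 9.09 and 9.12 CPM in Srrm2+/- cells. That was a log2 fold change of -0.35 (edgeR adjusted p = 0.0332, SE 0.102), a call that was lost without WT replicate 1 (-0.23, edgeR adjusted p = 0.0804) or without any 1 of the Srrm2+/- replicates (edgeR adjusted p 0.0761 to 0.0959). Per kilobase the WT level of the U6 sum was 107 CPM against 67110 CPM for the U1 sum. Rnu7, the histone pre-mRNA processing RNA, had 0 counts in all libraries and is not a spliceosomal RNA.

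All 4 RNAs particular to the minor spliceosome were lower in Srrm2+/- cells. Rnu11 was at 57.0, 51.5 and 16.6 CPM in WT and at 4.61, 9.61 and 5.997 CPM in Srrm2+/- cells. WT replicate 3 was far below the other WT libraries but above all Srrm2+/- libraries. The log2 fold change was -2.63 (edgeR adjusted p = 0.00255, SE 0.44), or 16.2% of WT, and -3.00 without WT replicate 3. Every 31-base word of Rnu11 also lies in Gm28872, a 158-base lincRNA on the opposite strand, and the strand setting of the counting is not given in the sources used here. The level of Gm28872 was 13.1 ± 2.47 CPM for WT and 15.3 ± 2.43 CPM for Srrm2+/- cells (SD, n = 3), a log2 fold change of 0.22 (edgeR adjusted p = 0.324). With both genes added together, a sum chosen after seeing the data, the log2 fold change was -1.32 (edgeR adjusted p = 0.00658, SE 0.27).

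Rnu12, which has words found in no other gene and none shared with other gene types, was at 255, 351 and 169 CPM in WT and at 70.1, 67.5 and 107.9 CPM in Srrm2+/- cells. The groups did not overlap. Rnu12 thus had a log2 fold change of -1.66 (edgeR adjusted p = 0.00179, SE 0.26), or 31.6% of WT, and -1.89 without WT replicate 3.

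U4atac, which holds U6atac inactive, and U6atac, which then enters the catalytic centre for minor introns, were both lower. Gm22710 (U4atac) had few counts, 119, 164 and 101 in WT and 27, 35 and 35 in Srrm2+/- cells. Its WT replicate 3 was close to the other WT libraries. The log2 fold change was -2.23 (edgeR adjusted p = 0.000152, SE 0.232), or 21.3% of WT. All words of Gm22710 lie within the annotated antisense transcript 2900060B14Rik, on the same strand. The U4atac sum was also set up to take in that gene, but the sum stayed at means of 2.29 CPM in WT and 0.488 CPM in Srrm2+/- cells. No counts were thus added, so its unchanged log2 fold change of -2.23 is not a check on that transcript. Whether reads of that transcript were counted under Gm22710 was not tested. Gm25541 (U6atac), with 4 low relatives, was at 32.0, 34.8 and 16.8 CPM in WT and at 6.70, 5.81 and 11.8 CPM in Srrm2+/- cells. That was a log2 fold change of -1.79 (edgeR adjusted p = 0.0027, SE 0.308), and -2.05 without WT replicate 3.

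The fitted family levels ranged from 16.2% of WT for U11 (40.1% with Gm28872 added) to 78.5% for U6. The test used here could not decide whether families differed, because its smallest possible p with 3 libraries per genotype is 0.1. The U11 sum below leaves Gm28872 out. Each family sum was divided by the U1 sum of its own library, which removes library scaling, so these ratios share U1 as denominator. Relative to U1, the mean log2 ratio changed by -0.97 for U4, -1.15 for U5, -1.94 for U11, -1.07 for U12, -1.65 for U4atac and -1.22 for U6atac. In each of these 6 ratios all WT libraries lay above all Srrm2+/- libraries, and each had a two-sided exact permutation p of 0.1, the smallest this design allows. None passed after adjustment over the 27 ratios computed (Benjamini-Hochberg 0.245). The U2 to U1 ratio changed by -0.29 and overlapped between genotypes (exact permutation p = 0.2). U12 changed by -0.78 relative to U2 (exact permutation p = 0.1, adjusted 0.245). The partners U4atac and U6atac differed by -0.43 in log2 ratio with overlap (exact permutation p = 0.3), and U5 to U4 differed by -0.19 with overlap (exact permutation p = 0.2).

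Copies of a family that differ by a few bases were compared next, since they lie at different loci but give the same kind of RNA. Identical copies could not be separated: 8 sets of tested genes had the same counts in every library, and each set held 1 distinct sequence. The largest was Rnu1a1 with 6 further U1a genes. U1a-type genes lie on chromosomes 11 and 12 and the U1b-type genes in a cluster on chromosome 3. In the U1 lines below capitals mark bases that differ from Rnu1a1, and positions are counted from 1 at its 5′ end. Rnu1b1 (the same sequence as Rnu1b2) carries C33T, T60C, T62C, C73T, C74G and A77G and has 1 inserted base, and Rnu1b6 shares all but the first of these, adds T156G and has 2 inserted bases. Gm22513 differs by T60C alone.
Rnu1b1 (U1, chr3:96359953-96360117, minus strand): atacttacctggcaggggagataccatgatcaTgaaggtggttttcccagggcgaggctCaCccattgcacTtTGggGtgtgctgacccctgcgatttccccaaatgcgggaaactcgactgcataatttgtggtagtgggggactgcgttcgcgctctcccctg
Rnu1b6 (U1, chr3:96460024-96460189, minus strand): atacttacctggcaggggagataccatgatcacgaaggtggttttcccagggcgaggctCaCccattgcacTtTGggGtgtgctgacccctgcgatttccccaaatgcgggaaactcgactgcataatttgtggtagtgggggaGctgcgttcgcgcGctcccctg
Gm22513 (U1, chr12:54696782-54696945, plus strand): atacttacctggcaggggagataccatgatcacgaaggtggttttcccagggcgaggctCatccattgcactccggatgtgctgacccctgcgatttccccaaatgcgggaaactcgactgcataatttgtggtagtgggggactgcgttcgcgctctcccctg

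Neither the U1a nor the U1b type was called with all libraries in the fit. The level of Rnu1a1 was 634 ± 202 CPM for WT and 414 ± 121 CPM for Srrm2+/- cells (SD, n = 3; log2 fold change -0.61). Rnu1b1 stood at 470 ± 111 and 346 ± 81.7 CPM (log2 fold change -0.44), and Rnu1b6 was at 696.5 ± 149.8 and 485 ± 116 CPM (log2 fold change -0.52). None of the 3 was called (edgeR adjusted p 0.118, 0.136 and 0.0668). The log2 ratio of U1b-type to U1a-type genes by symbol was 1.40 ± 0.209 in WT and 1.52 ± 0.109 in Srrm2+/- cells (exact permutation p = 0.4). By sequence the difference was the same to 2 decimals, 0.12 (exact permutation p = 0.5). Ratios of 2 single U1 copies to Rnu1a1 separated the genotypes without overlap and in opposite directions, by -0.06 for Gm22513 and by 0.19 for Gm24305, which differs from Rnu1a1 by A26G alone (exact permutation p = 0.1 for each, the smallest possible, adjusted 0.245). Rnu1a1, Rnu1b1 and Rnu1b6 passed the threshold when WT replicate 3 (edgeR adjusted p 0.0151 to 0.0263) or Srrm2+/- replicate 2 (0.0157 to 0.0485) was left out.

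All 8 U2 profiles were lower, by -0.62 to -1.38 in log2 fold change. The U2 lines show bases that differ from Rnu2-10. Gm23444 on chromosome 11 (and its copy Gm23472 on chromosome 1) differs by G109C alone, Gm25360 on chromosome 1 by 4 bases, and Gm22973 on chromosome 12 by 9 bases. None of these changes touches the branch point element at positions 33 to 38.
Gm23444 (U2, chr11:83271498-83271688, plus strand): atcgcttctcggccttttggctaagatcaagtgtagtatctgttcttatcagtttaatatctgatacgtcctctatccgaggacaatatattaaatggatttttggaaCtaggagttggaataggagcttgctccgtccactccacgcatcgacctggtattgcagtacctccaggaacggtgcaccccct
Gm25360 (U2, chr1:72226240-72226430, plus strand): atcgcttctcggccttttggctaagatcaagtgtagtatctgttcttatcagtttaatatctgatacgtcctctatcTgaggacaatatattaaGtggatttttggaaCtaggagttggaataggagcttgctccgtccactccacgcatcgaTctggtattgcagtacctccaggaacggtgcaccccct
Gm22973 (U2, chr12:59040335-59040525, plus strand): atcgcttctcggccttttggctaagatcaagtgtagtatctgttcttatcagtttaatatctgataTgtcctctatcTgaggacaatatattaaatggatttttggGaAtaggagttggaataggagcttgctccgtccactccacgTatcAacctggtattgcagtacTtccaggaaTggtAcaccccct

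Gm23444 was the most abundant U2 profile, with 733, 600 and 499 CPM in WT and 342, 461 and 356 CPM in Srrm2+/- cells (log2 fold change -0.66, edgeR adjusted p = 0.0106). Gm25360 was at 367, 395 and 243 CPM in WT and at 123, 160 and 154 CPM in Srrm2+/- cells (log2 fold change -1.20, edgeR adjusted p = 0.000993). Gm22973, the most diverged, was at 156, 164 and 102 CPM in WT and at 45.8, 48.9 and 66.9 CPM in Srrm2+/- cells (log2 fold change -1.38, edgeR adjusted p = 0.000862). The groups did not overlap for any of the 3. Relative to Rnu2-10 the log2 ratio changed by 0.28 for Gm23444, by -0.24 for Gm25360 and by -0.44 for Gm22973 (exact permutation p = 0.2 for each, with overlap).

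The pair of U4 genes that passed the filter lie side by side on chromosome 5 and differ by G88A and C99A, counted in Gm24265.
Gm24407 (U4, chr5:115490254-115490394, plus strand): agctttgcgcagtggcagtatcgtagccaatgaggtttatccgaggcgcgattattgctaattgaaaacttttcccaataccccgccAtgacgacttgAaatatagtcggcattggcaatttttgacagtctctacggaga

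Gm24265 was at 681, 749 and 344 CPM in WT and at 165, 192 and 205 CPM in Srrm2+/- cells (log2 fold change -1.66, edgeR adjusted p = 0.00133). Gm24407 was at 518, 528 and 260 CPM in WT and at 136, 165 and 155 CPM in Srrm2+/- cells (log2 fold change -1.52, edgeR adjusted p = 0.00154). Both fell without overlap, and their ratio overlapped between genotypes (difference 0.13, exact permutation p = 0.3).

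All 6 U5 profiles were lower, by -1.40 to -2.00. Gm25313 lies beside Rnu5g in an intron of Parp16 on chromosome 9, on the opposite strand to that gene, Gm25099 lies on chromosome 4, and Gm22265 lies in an intron of Hhat on chromosome 1.

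Gm22265 was at 17.2, 18.6 and 7.24 CPM in WT and at 2.46, 3.36 and 5.02 CPM in Srrm2+/- cells (log2 fold change -2.00, edgeR adjusted p = 0.00381, SE 0.36). Gm25313 was at 92.0, 132 and 35.9 CPM in WT and at 18.9, 23.4 and 29.6 CPM in Srrm2+/- cells (log2 fold change -1.86, edgeR adjusted p = 0.00823, SE 0.393). Gm25099 was at 124, 115 and 53.5 CPM in WT and at 22.8, 28.7 and 32.9 CPM in Srrm2+/- cells (log2 fold change -1.79, edgeR adjusted p = 0.00178, SE 0.28). In each, WT replicate 3 was the lowest WT library and still lay above every Srrm2+/- library. Ratios to Rnu5g overlapped for all 3 (exact permutation p 0.5 to 1.0). Of the other U5 copies, Gm23287 differed relative to Rnu5g by 0.15 in log2 ratio without overlap (exact permutation p = 0.1, adjusted 0.245), and Gm23143 differed by 0.46 with overlap (exact permutation p = 0.2).

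The lowest log2 fold change of any tested snRNA gene was that of a U1-like gene. Gm26244, which lies on the same strand in an intron of Rock1 on chromosome 18 and is 99.4% identical to a U1 reference, reached 5435, 8695 and 466 counts in the WT libraries, against 324, 1393 and 282 in Srrm2+/- cells. WT replicate 3 was lower than Srrm2+/- replicate 2, so the groups overlapped. The fitted log2 fold change was -3.12 (edgeR adjusted p = 0.0344, SE 0.909). The call was lost with limma voom (adjusted p = 0.174) and without WT replicate 1 or 2 or Srrm2+/- replicate 1 or 3 (edgeR adjusted p 0.0749 to 0.118). A second such gene, Gm24924 in an intron of Ss18, reached 5528, 7272 and 479 counts in the WT libraries, against 914, 3198 and 533 in Srrm2+/- cells, and was not called (log2 fold change -1.78, edgeR adjusted p = 0.167). It was named after its values were seen, because its pattern over the WT libraries is like that of Gm26244. Gm26244 has 13 sequence words found in no other gene, and Gm24924 has 0. The counts of both genes therefore depend on how reads shared with other genes were divided among copies. Whether the reads came from these loci was not tested.

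**Figure D2:**
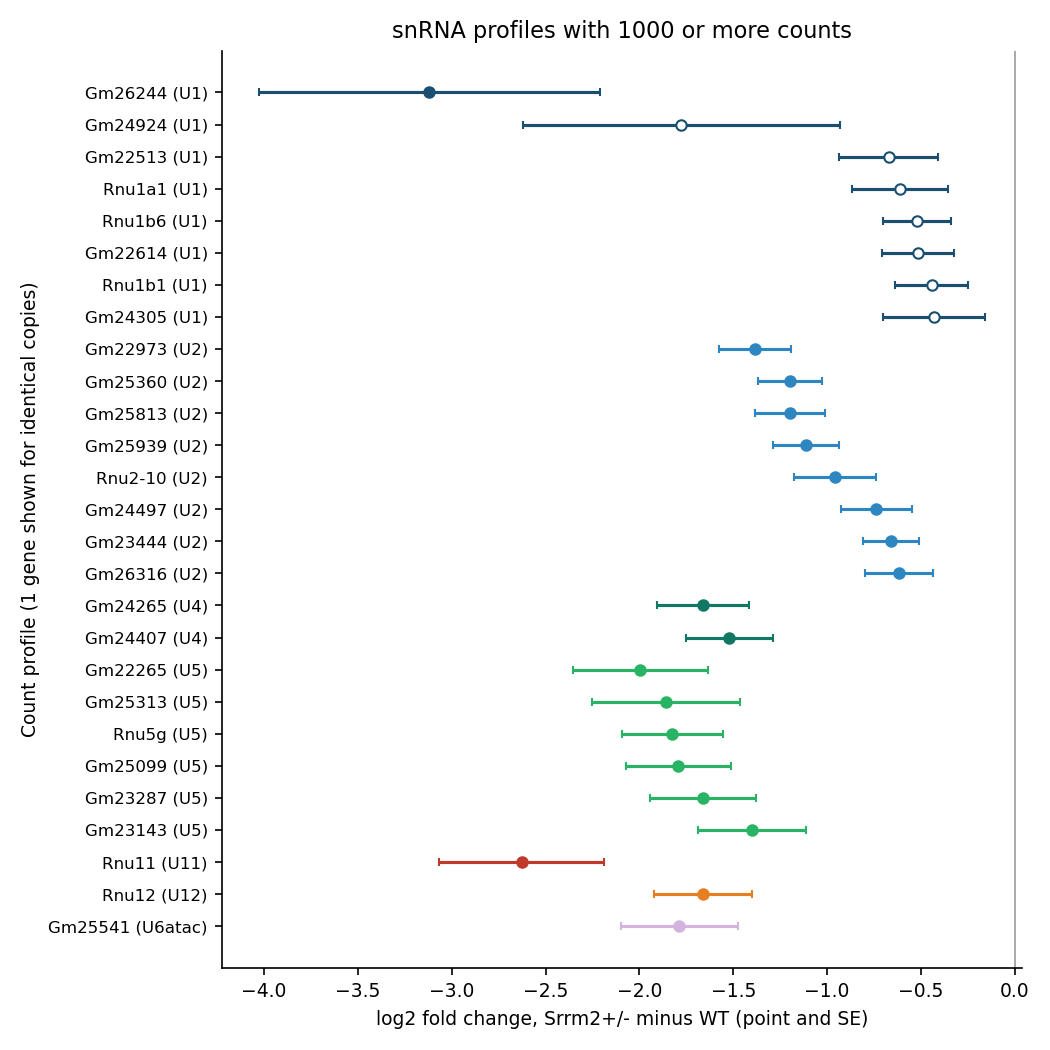
Log2 fold change (Srrm2+/- minus WT) of the 27 snRNA profiles with 1000 or more counts, with 1 SE as bars and 1 gene shown for identical copies. Filled points passed an edgeR adjusted p of 0.05 and open points did not. U1 profiles lie between -0.67 and -0.43 apart from Gm26244 and Gm24924, U2 profiles lie between -0.62 and -1.38, and U4, U5, U11, U12 and U6atac profiles lie at -1.40 or lower.

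Among the abundant snRNAs, transcript length moved with the result. Among profiles with 1000 or more counts, all 7 of 116 to 126 bases were lower (median log2 fold change -1.79), as were all 4 of 134 to 151 bases (median -1.66). Of the 8 U1 profiles of 164 to 166 bases, 1 was lower (median -0.57), whereas all 8 U2 profiles of 191 bases were lower (median -1.03). Spearman's rho of length and log2 fold change was 0.65 over the 27 profiles, which share libraries and families, and 0.79 over 8 families with U6 left out. U6 runs against this order: its tested genes by sequence are shorter (107 bases), yet it had the smallest fall of the tested families (-0.35). Over the 232 snoRNA and scaRNA genes tested the sign of rho was opposite, at -0.27. All 3 rho values are descriptions. The part of length in the result was not tested.

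**Figure D3:**
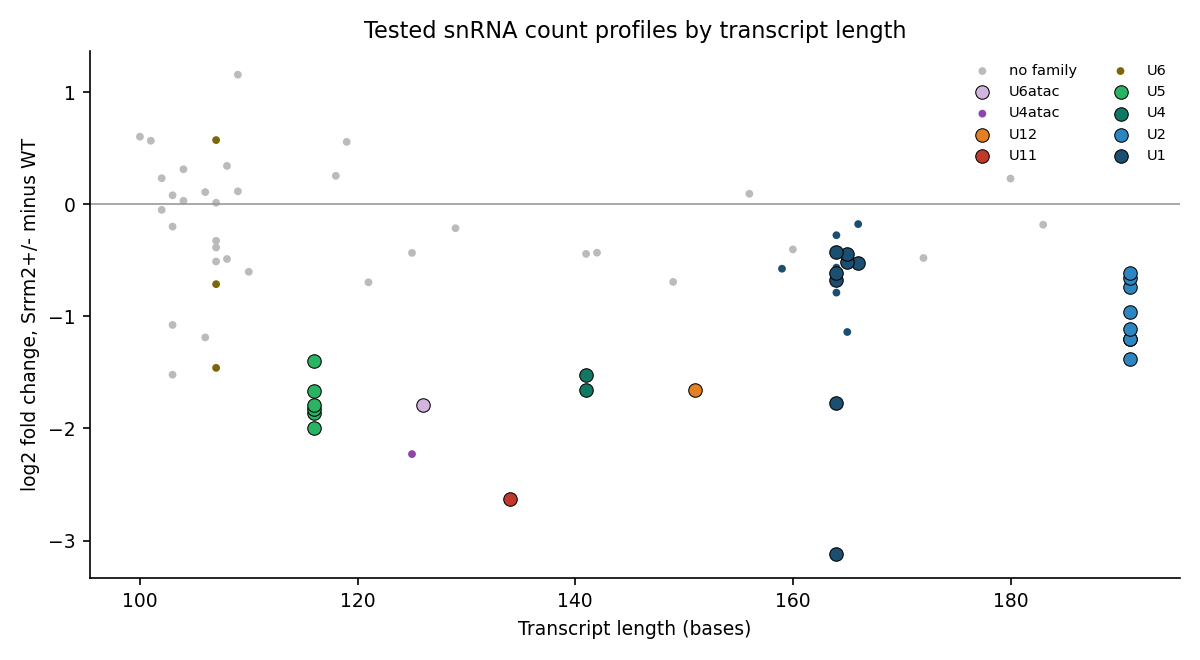
Log2 fold change (Srrm2+/- minus WT) of the 74 tested snRNA profiles against transcript length in bases, coloured by family. Large outlined points have 1000 or more counts, small points fewer. Profiles of 116 to 151 bases with 1000 or more counts lie at -1.40 or lower, U1 at 164 to 166 bases has a median of -0.57 and U2 at 191 bases one of -1.03.

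Other short RNAs of the same libraries give the setting. All snRNA genes together took 1.94%, 1.90% and 1.11% of counts in WT and 0.881%, 1.26% and 0.855% in Srrm2+/- cells, with overlap (exact permutation p = 0.2, smallest possible 0.1). Small nucleolar RNA (snoRNA) genes took 0.577% ± 0.0922 in WT and 0.350% ± 0.0323 in Srrm2+/- cells (SD, n = 3, exact permutation p = 0.1, without overlap). Cajal body RNA (scaRNA) genes, whose products guide snRNA modification, took 0.0544% ± 0.00323 and 0.0466% ± 0.00208 (SD, n = 3, exact permutation p = 0.1). Among snoRNA and scaRNA genes, 10 of 67 with 50 to 99 bases were lower and 1 was higher (median log2 fold change -0.16). Over all genes tested, 11.7% were lower and 13.6% were higher. Lower were also 16 of 36 with 100 to 129 bases (median -0.71) and 66 of 102 with 130 to 159 bases (median -0.99). So were 9 of 26 with 160 to 399 bases (median -0.41), and none of these longer genes was called higher. The polymerase III transcripts Rny1 and Rny3, of 112 and 102 bases, were lower too (log2 fold change -1.49 and -1.53, edgeR adjusted p 0.00693 and 0.00138). The longer Rn7sk (331 bases, 0.03), Rpph1 (319 bases, 0.05) and Rmrp (271 bases, -0.17) were not called (edgeR adjusted p 0.838, 0.708 and 0.294). Ribosomal RNA genes took 0.0315% ± 0.0158 of counts in WT and 0.00943% ± 0.00308 in Srrm2+/- cells (SD, n = 3, exact permutation p = 0.1), and the annotation class misc_RNA, which holds Rn7sk, took 7.55% ± 1.04 and 8.46% ± 0.592 (SD, n = 3, exact permutation p = 0.3). MicroRNA (miRNA) genes went the other way, from 0.0813% ± 0.0161 in WT to 0.126% ± 0.0286 in Srrm2+/- cells (SD, n = 3, exact permutation p = 0.2). WT replicate 3 was the lowest WT library for the snRNA, snoRNA, miRNA and rRNA shares and for Rny1 and Rny3, but not for the scaRNA and misc_RNA shares. The part of RNA isolation or library preparation in these shares was not tested.

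**Figure D4:**
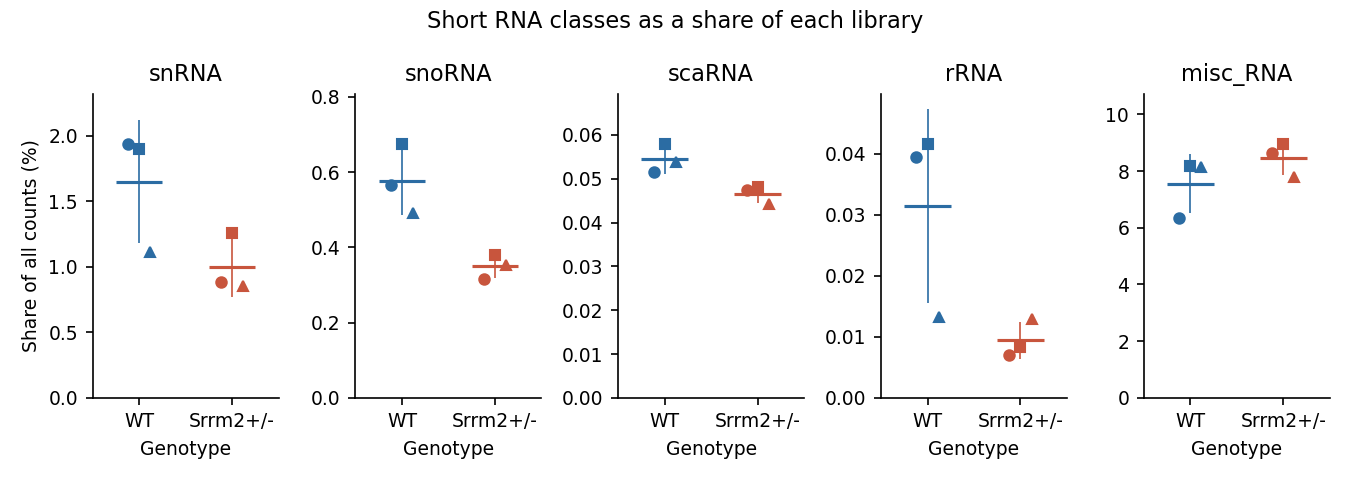
Share of all counts (%) taken by snRNA, snoRNA, scaRNA, rRNA and misc_RNA genes in each library, with circles, squares and triangles for replicates 1, 2 and 3, horizontal lines for means and vertical lines for SD (n = 3). For snRNA, WT replicate 3 (1.11%) lies below Srrm2+/- replicate 2 (1.26%), and for snoRNA all WT libraries lie above all Srrm2+/- libraries.

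Genes for proteins that make, mature or carry snRNAs were called at shares close to or below those over all genes tested. Of 122 genes in 12 lists, 121 were tested, of which 8 (6.61%) were lower and 14 (11.6%) were higher, against 11.7% lower and 13.6% higher over all genes, and their median log2 fold change was 0.04. None of 14 snRNA transcription factors (the SNAPc complex and its partners) and none of 9 cap-binding, export and import genes was called. Of 14 Integrator genes 3 were lower, led by Ints6 (79.9 ± 5.01 CPM in WT, 67.0 ± 2.20 CPM in Srrm2+/- cells, SD, n = 3; log2 fold change -0.25, edgeR adjusted p = 0.00731) and Ints3 (-0.25, edgeR adjusted p = 0.0154). Of 12 SMN complex genes 1 was lower and 2 were higher, among them Gemin2 (-0.17, edgeR adjusted p = 0.0199) and Gemin5, which recognises snRNAs (0.19, edgeR adjusted p = 0.0164).

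Of 8 Sm ring genes 2 were higher. Snrpn, a tissue-restricted copy of the Sm protein B gene, rose from 86.4 ± 5.13 to 126 ± 6.14 CPM (SD, n = 3; log2 fold change 0.55, edgeR adjusted p = 0.000145), and Snrpd1 gave 0.14 (edgeR adjusted p = 0.0464). Of 7 LSM genes, whose ring binds U6, Lsm5 was lower (-0.22, edgeR adjusted p = 0.00733). Of 12 Cajal body and recycling genes 1 was lower and 2 were higher. Dkc1, the pseudouridine synthase of H/ACA particles, fell from 409 ± 11.7 to 309 ± 12.6 CPM (SD, n = 3; log2 fold change -0.41, edgeR adjusted p = 0.00024), and Sart3, which rejoins U4 and U6, gave 0.16 (edgeR adjusted p = 0.0325).

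Of 4 genes for 3′ end processing 2 were higher, both enzymes of U6. They were Usb1, which trims its end (0.35, edgeR adjusted p = 0.0234), and Tut1, which adds uridines (0.24, edgeR adjusted p = 0.00634). None of 3 U1 and none of 11 U2 particle protein genes was called. Of 15 genes for U4, U5 and U6 particle proteins 6 were higher, by at most 0.21, among them Prpf8, the largest U5 protein (0.21, edgeR adjusted p = 0.0136), and Ddx23, a U5 helicase (0.19, edgeR adjusted p = 0.0283). Of 12 minor spliceosome protein genes 2 were lower, Zrsr2, which recognises the 3′ splice site (-0.19, edgeR adjusted p = 0.0179), and Rbm48 (-0.16, edgeR adjusted p = 0.0327). Leaving out 1 library gave 8 to 20 calls in these lists in place of 22, with 12 without WT replicate 2, 13 without WT replicate 3, 14 without Srrm2+/- replicate 2 and 8 without Srrm2+/- replicate 3. Of the 15 genes named here, Ints6, Snrpn, Lsm5, Dkc1, Tut1 and Prpf8 kept their call under every alternative run, and Snrpd1 also lost it when scaled on protein-coding genes (edgeR adjusted p = 0.0617).

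**Figure D5:**
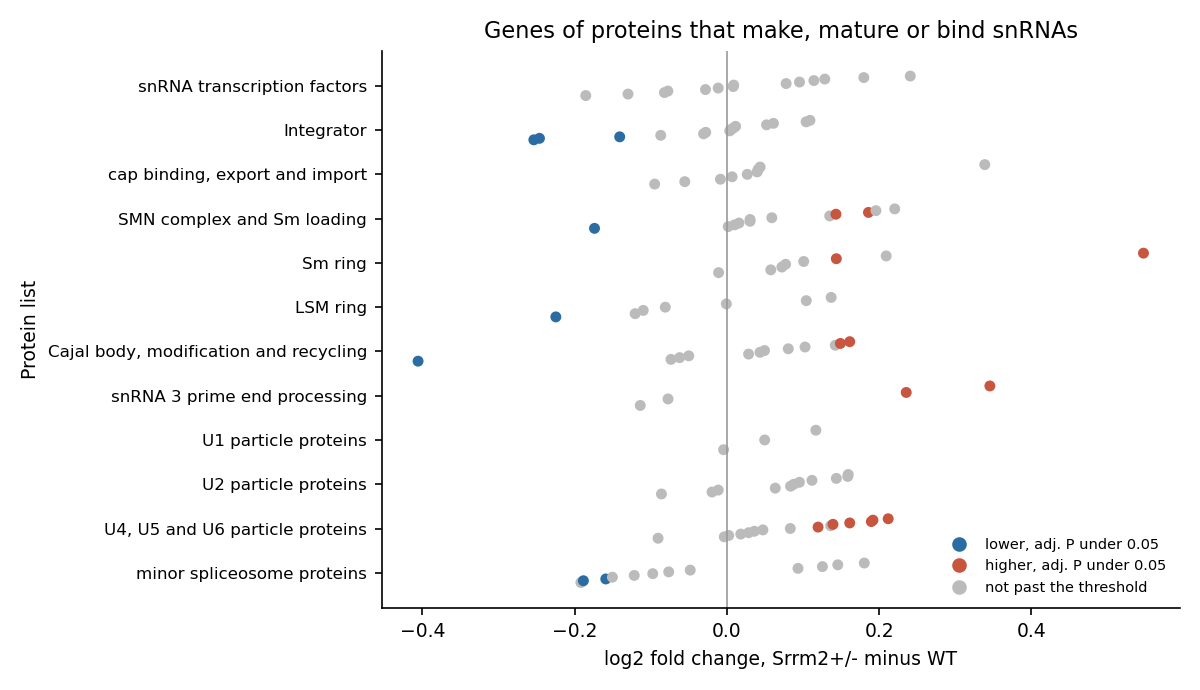
Log2 fold change (Srrm2+/- minus WT) of the 121 tested protein-coding genes in the 12 snRNA pathway lists, 1 point per gene. Blue points were lower and red points higher (edgeR adjusted p under 0.05), and grey points did not pass. All points lie between -0.41 and 0.55, and the 6 higher genes of the U4, U5 and U6 list are all at 0.21 or below.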

How the data were processed

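Total RNA (TruSeq Stranded kit, paired 75-base reads) was sequenced from 3 WT and 3 Srrm2+/- libraries, grouped by sample titles. The authors pseudo-aligned reads with Kallisto 0.46.1 to GENCODE M24 (mm10) and deposited estimated counts per gene, not normalised; 45.7% of values were not whole and were rounded here. Spike-ins were added, but no spike-in rows were used here. Gene types, positions and transcript sequences came from GENCODE M21, the release used here, on the same build (42156 identifiers matched).

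Genes past filterByExpr (minimum count 10, minimum total 15) were tested with edgeR 4.0.16 (TMM, glmQLFit and glmQLFTest, two-sided, genotype as the only term), with Benjamini-Hochberg adjustment over all genes and a threshold of 0.05. Family sums replaced their members in the same fit. SE is the log2 fold change divided by the square root of F. CPM are on TMM-scaled library sizes, and percentages of WT are fitted. Library ratios (0.5 added) were tested by exact permutation. DESeq2 1.42.0, limma 3.58.1 voom, other scalings, filters, a replicate block and leaving out libraries were alternatives, and the scripts were tested on simulated data. Kallisto divides reads among near-identical copies, so single copies are less certain than family sums. P-values measure the spread between these 3 batches of 1 clone per genotype. Named genes were Srrm2, genes with a family symbol, the 5 largest falls and rises among other called snRNA genes (no rise was called) and the 2 largest called members of each protein list. Families by sequence, family ratios and length groups were added after seeing the data. Sequences of U5 and U6 genes are not reported here. The members and lists were chosen with earlier results of these data known.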

Additional observations from a re-analysis of the deposited data

How the results depend on the processing

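The count of lower snRNA genes was 25 or 26 under RLE, upper quartile and protein-coding scaling, DESeq2 and limma voom. It was 31 of 573 (5.41%) with a minimum of 1 count in all, where 2013 of all genes tested were lower. With 1 CPM in every library of a group it was 25 of 44 (56.8%), where 2151 of all genes tested were lower. The share over all genes was not computed for these filters, so an excess of lower calls cannot be judged there. The count was 18 when the log2 fold change also had to reach 1 in size. With the minimum of 1 count the median log2 fold change of snRNA genes was -0.24. Leaving out 1 library gave 19 to 45 called snRNA genes (45 without WT replicate 3), with 1 higher call, Gm22523 (15 and 18 against 3 to 4 counts), without Srrm2+/- replicate 3. Left-out libraries moved U1 between -0.73 and -0.38, U2 between -1.17 and -0.76, U6 between -0.41 and -0.23, and the number of protein genes called between 8 and 20. They moved U4 between -1.87 and -1.41, U5 between -2.09 and -1.54 and U11 between -3.00 and -2.335. For U12 the range was -1.91 to -1.37, for U4atac -2.35 to -2.04 and for U6atac -2.15 to -1.59. Same-numbered libraries did not deviate together (correlations -0.0339, 0.0283 and -0.0101), so the numbers were not taken as pairs. With replicate number as a block, 39 snRNA genes were lower, U1 was called (-0.51, edgeR adjusted p = 0.0155) and U6 was not (-0.34, edgeR adjusted p = 0.0602). U4, U5, U11, U12, U4atac and U6atac kept their call and direction under every alternative run. The causes of these changes were not tested.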
